A study of Caenorhabditis elegans with 4 samples.

Results

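Broad EFL-1 binding regions are the peaks of the authors' combined list that are at least 1000 bp wide, counted from the first to the last base of the peak. There were 418 of them among 5334 combined peaks, or 7.84%. They covered 0.705 Mb, which is 23.9% of all bases under combined peaks. EFL-1 was mapped by chromatin immunoprecipitation and sequencing (ChIP-seq) in Caenorhabditis elegans. The animals were wild-type N2 hermaphrodites in the first larval stage (L1), grown at 26 degrees C. The 4 samples were 2 ChIP libraries and 2 input libraries of sonicated, formaldehyde-crosslinked chromatin that was not precipitated. The labels disagree on what was precipitated, since the series title and the protocol name a GFP-tagged factor and an anti-GFP antibody, whereas the sample names carry N2 and "Ab" and the genotype is wild type. The labels do not say whether each replicate was a culture of its own, and the replicate spread given below may be only technical.

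EFL-1 belongs to the E2F family of transcription factors. E2F factors bind DNA together with a DP partner, DPL-1 in the worm, and are held in a repressive state by the retinoblastoma protein, LIN-35 in the worm. In worms this group of proteins is known for control of the cell cycle, of germline genes in body tissues and of early embryonic development. A sequence-specific factor usually gives a narrow ChIP-seq peak around its site, so a region over 1 kb can hold several sites or a spread signal. A peak list alone does not tell these apart.

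Each list gave the position of every peak on the WormBase WS220 genome and a q-value, that is a p-value adjusted for the number of tests. Strength below is −log10 of the deposited q-value. The lists held 5334 combined peaks, 3126 of replicate 1 and 4540 of replicate 2. They carry no read numbers, so the depth behind each peak is unknown. Width chose the broad regions, and width, strength and the replicate peaks come from the same libraries, so the values below are descriptions with no test. Percentages in brackets are exact Clopper-Pearson 95% intervals, which cover counting error only and treat regions as independent.

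Most of the widest regions were either unbroken in both replicates or made of separate peaks in both. The widest of all, at chromosome II 10541867 to 10550578, was 8712 bp wide and had a combined strength of 161. It was 2 peaks in replicate 1 and 4 in replicate 2. In replicate 1 the first peak was 4453 bp wide with a strength of 74.3 and the second 2212 bp with a strength of 14.9. In replicate 2 the outer peaks had strengths of 50.8 and 27.4 and the inner ones 2.84 and 2.65, and 2695 bp after the first peak held no call. Both replicates thus had the strongest call at the same end of the region. The second replicate 1 peak overlapped the last 2 replicate 2 peaks, whereas the second replicate 2 peak lay in a gap of 1230 bp in replicate 1.

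The next widest region, at chromosome I 7079089 to 7086185, was unbroken. It was 7097 bp wide in the combined list, 7076 bp in replicate 1 and 7012 bp in replicate 2, with strengths of 146, 38.2 and 43.7. The 3 lists agreed on its edges to within 50 bp. The widest region of X, at 6740509 to 6745859, was also 1 peak in each list, 5351 bp wide in the combined list, 4256 bp in replicate 1 and 5317 bp in replicate 2, with strengths of 126, 54.2 and 65.3. The widest region of V, at 723753 to 728344, measured 4592, 4555 and 4530 bp in the same order, with strengths of 130, 65.5 and 44.7. In these 3 regions 1 continuous call recurred in both replicates.

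The region at chromosome II 11974134 to 11980453 was 6320 bp wide with a combined strength of 171, and held 3 peaks in each replicate. Their strengths from left to right were 25.9, 5.79 and 47.9 in replicate 1 and 39.2, 11.4 and 68.8 in replicate 2. The order of the peaks by strength was the same in both, with the weakest in the middle. The region at chromosome II 8741942 to 8747827, 5886 bp wide, was far weaker, with a combined strength of 33.8 and a strongest replicate peak of 6.19 and 9.03. It held 2 peaks in each replicate, with the break at another place in each.

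The widest region of III, at 13462353 to 13466673, was also the strongest combined peak of all. It was 4321 bp wide with a combined strength of 288, formed 1 peak of 4009 bp in replicate 1 and 2 peaks of 3329 and 647 bp in replicate 2, and its strongest replicate peaks reached 224 and 152. The widest of IV, at 10933014 to 10937341, was 4328 bp wide with a combined strength of 207 and 2 peaks in each replicate. So were the other two of the 10 widest, the 4495 bp region at X 11603175 to 11607669 and the 4448 bp region at V 11530647 to 11535094, with combined strengths of 99.9 and 64.0. In the X region the right-hand peak was the stronger in both replicates, at 61.9 against 7.14 and at 52.9 against 4.28. In the V region the right-hand peak was the stronger in replicate 1, at 11.8 against 2.97. In replicate 2 it was the left-hand peak, at 38.0 against 5.38. The stronger peaks still shared a place, as that of replicate 1, at 11531845 to 11532741, lay inside that of replicate 2, at 11531006 to 11534257. Of the 10 widest regions, 3 were thus 1 peak in both replicates, 6 were several in both and the III region was divided in replicate 2 alone. Division in both replicates did not always mean the same break. In the IV region the replicate 1 break, between 10934521 and 10934732, lay inside the replicate 2 peak at 10933708 to 10937317. In the V region the left-hand replicate 2 peak overlapped both replicate 1 peaks.

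**Figure D1:**
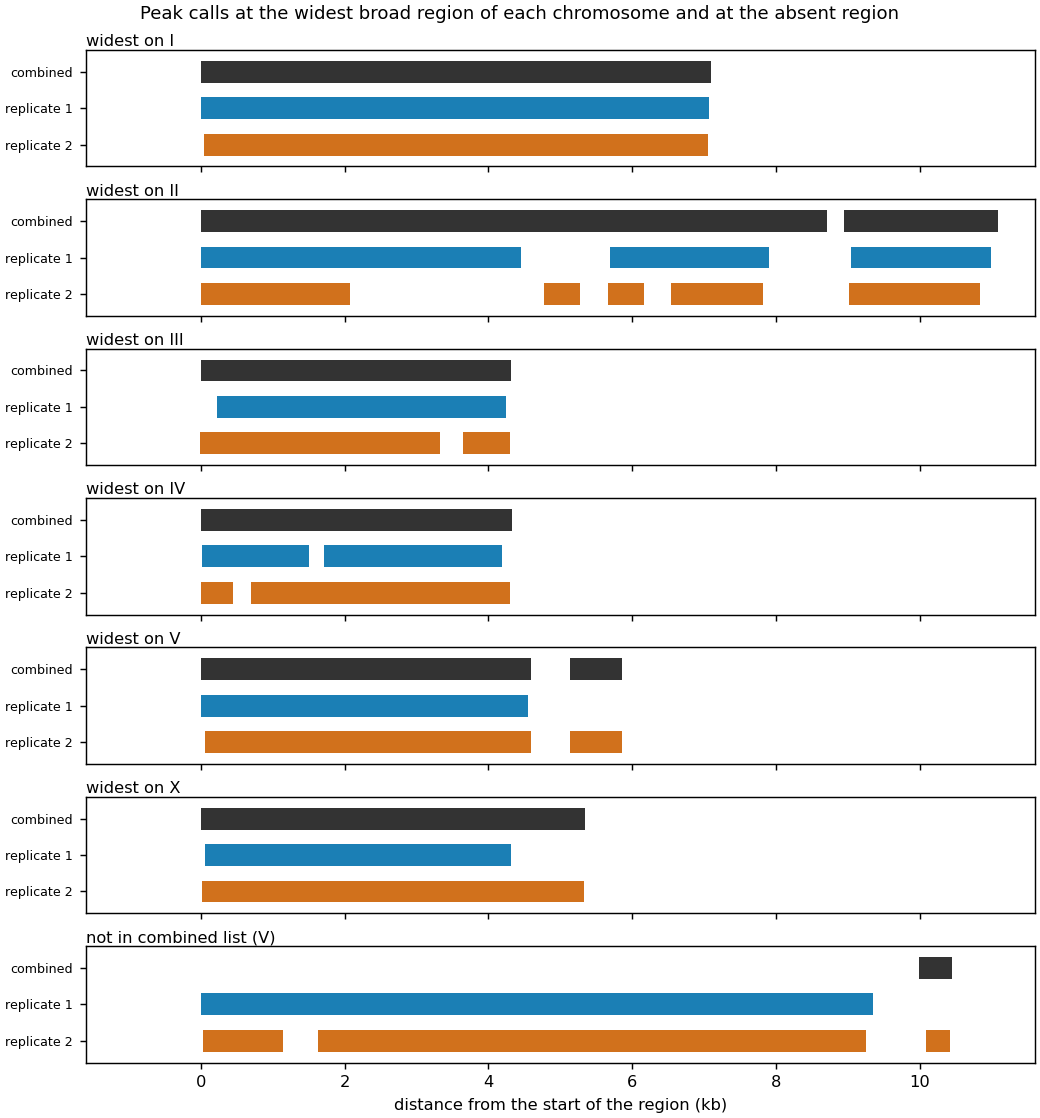
Peak calls at the widest broad region of each chromosome and at a V region that the combined list lacks, with distance from the region's start in kb on the x axis and the combined, replicate 1 and replicate 2 lists as rows; each bar is 1 peak, and a bar right of the region is a neighbouring peak. The regions of I, V and X are 1 bar in each list, whereas the region of II is 2 peaks in replicate 1 and 4 in replicate 2.

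Most broad regions were only a little over the threshold. The median width was 1404 bp, the middle 50% ran from 1157 to 1875 bp, and 244 of 418, or 58.4%, were under 1500 bp. Another 84 were 1500 to 1999 bp wide, 65 were 2000 to 2999 bp and 25 were 3000 bp or more. The threshold cuts through a continuous range. Just inside it lay peaks of 1000 bp at chromosome V 5917369 to 5918368 (strength 147), 1001 bp at X 8231672 to 8232672 (27.0) and 1002 bp at I 2321682 to 2322683 (108). Just outside it lay peaks of 999 bp at I 4700998 to 4701996 (28.9), 997 bp at I 7951662 to 7952658 (9.15) and 997 bp at II 5377768 to 5378764 (3.40).

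Broad regions covered the whole range of strength. Their strengths ran from 2.00 to 288 with a median of 55.9 (middle 50%, 14.2 to 110.0), against a median of 12.0 (4.42 to 38.3) for the 4916 narrower peaks. When the combined list was ranked by strength and cut into 10 equal groups, broad regions made up 1.50% of the weakest group and 26.6% of the strongest. The strongest group held 142 of the 418, and the weaker 50% of the list held 100. Of the 100 strongest combined peaks, 45 were broad. By width, the median strength was 49.3 for regions under 1500 bp, 52.7 for those of 1500 to 1999 bp, 57.5 for those of 2000 to 2999 bp and 101 for the 25 of 3000 bp or more. Both measures come from the same peak call. The list matters for the level. The broad peaks of replicate 1 alone had a median strength of 31.6 and those of replicate 2 alone 51.8.

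**Figure D2:**
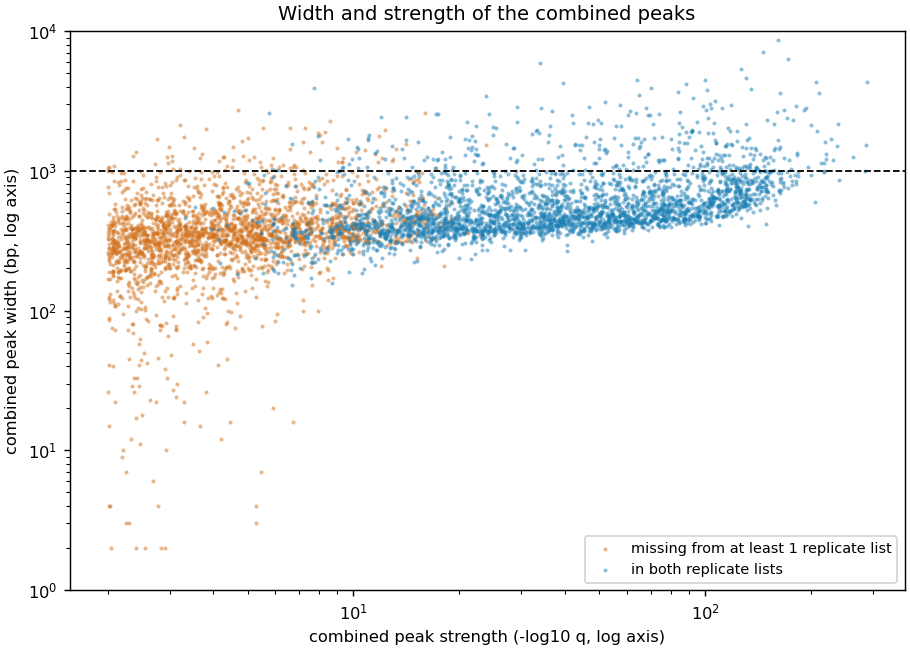
Width in bp against strength (−log10 q) for the 5334 combined peaks, both on log axes, coloured by whether the peak overlaps a call in both replicate lists; the dashed line is the 1000 bp threshold. The 418 peaks at or above the line run from a strength of 2.00 to 288, and those missing from a replicate list sit at the weak end.

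After the III region, the strongest broad regions were of modest width and a single peak in each list. The region at chromosome IV 3384344 to 3385872, 1529 bp wide, had strengths of 286 in the combined list, 211 in replicate 1 and 269 in replicate 2. The region at II 14251031 to 14252291, 1261 bp wide, had 263, 269 and 282 in the same order, and was the strongest peak of both replicate lists. Of the 10 strongest, 9 were 1 peak in each replicate, with combined widths from 1188 to 2159 bp. On X the strongest was the 1193 bp region at 8035819 to 8037011, with 173, 113 and 129.

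Most broad regions were 1 peak in each replicate. In replicate 1, 310 of 418, or 74.2% (69.7 to 78.3), overlapped exactly 1 peak, 39 overlapped 2 to 4 and 69 overlapped none. In replicate 2, 353, or 84.4% (80.6 to 87.8), overlapped exactly 1 peak, 34 overlapped 2 to 4 and 31 none. The mean share with 1 peak was 79.3% ± 7.3 (SD, n = 2). In both replicates at once, 286 regions, or 68.4% (63.7 to 72.9), were 1 peak, against a background of 55.0% of all combined peaks. Narrower peaks of like strength gave 80.7%. This comparison value is the share among narrower peaks within each of the 10 strength groups, weighted by the number of broad regions in the group.

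Division into several peaks was found in 53 broad regions, or 12.7% (9.64 to 16.3), in at least 1 replicate, against 1.11% of all combined peaks and 6 of the 4916 narrower ones. A wide region has more room for several peaks, so width, which chose the regions, also sets this count. Of the 53, 20 were divided in both replicates, 19 were divided in replicate 1 and overlapped 1 peak of replicate 2, and 14 were divided in replicate 2 and overlapped 1 peak of replicate 1. The single peak covered a median 96.5% of the region in the 19 and 93.9% in the 14. It covered under 50% in 2 of the 19 and in 4 of the 14, where the other list thus lacked part of the region. The share divided went from 4.92% (2.57 to 8.43) of regions under 1500 bp and 7.14% (2.67 to 14.9) of those of 1500 to 1999 bp to 24.6% (14.8 to 36.9) of those of 2000 to 2999 bp and 76.0% (54.9 to 90.6) of the 25 of 3000 bp or more. Divided regions had a median width of 2499 bp and a median strength of 96.1.

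The breaks were mostly short. The 80 gaps between replicate peaks inside a broad region had a median of 316 bp, and 54 were under 500 bp. The shortest was 201 bp. No 2 peaks of any list lay closer than 200 bp, with a smallest gap of 201 bp in the combined list, 200 bp in replicate 1 and 201 bp in replicate 2, so closer stretches of signal do not appear as separate calls. Where a region held 2 peaks in a list, which occurred 68 times over both lists, the stronger peak had a median strength of 52.4 and the weaker 6.19. The region with the most replicate 1 peaks, at chromosome IV 2664414 to 2666976, was 2563 bp wide with 4 peaks of at most 458 bp in replicate 1 and 2 in replicate 2, where the stronger reached 39.9. The 3771 bp region at II 11633961 to 11637731 held 3 and 2, and its strongest peaks reached 16.5 and 69.8.

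**Figure D3:**
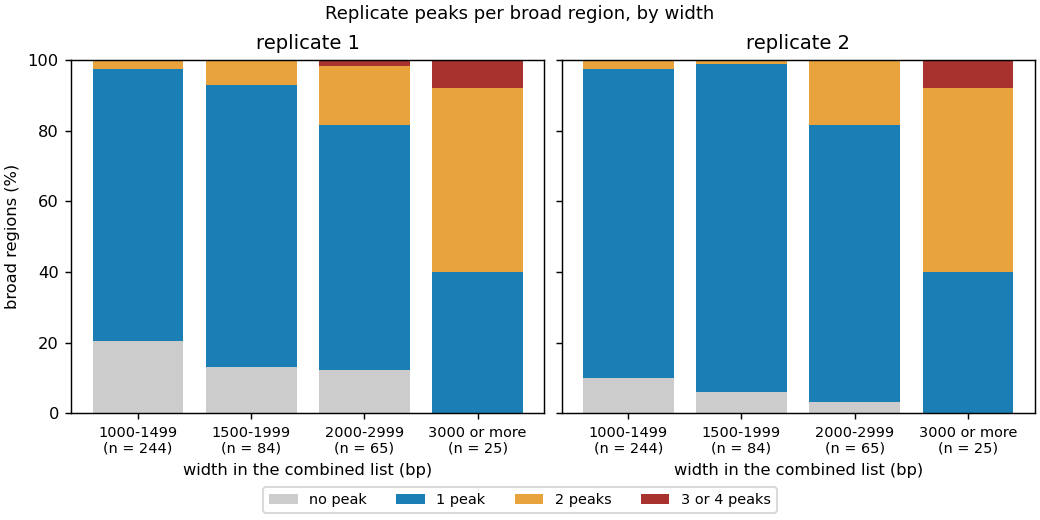
Share of broad regions (%) that overlap 0, 1, 2 or more peaks of replicate 1 (left) and replicate 2 (right), by width in the combined list in bp, with the number of regions under each bar. In each replicate taken alone, 10 of the 25 regions of 3000 bp or more were 1 peak and 15 were several. These were not all the same regions, as 19 of the 25 were divided in at least 1 replicate.

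Among the 286 regions with 1 peak in each list, the combined peak was wider than both replicate peaks in 264, or 92.3%. Choice by combined width favours this, and the same held for 84.9% of the 2646 narrower peaks with 1 peak in each list. Combined peaks with 1 peak in each list were also chosen by replicate width instead of combined width. It then held for 88.4% of the 155 with a replicate 1 peak of at least 1000 bp. For the 203 with a replicate 2 peak of that width it held for 87.7%. The median width was 1367 bp in the combined list, 1011 bp in replicate 1 and 1108 bp in replicate 2, and the median ratio of combined to replicate width was 1.25 and 1.09, against 1.13 and 1.06 for narrower peaks. The replicate peak widths had a Spearman's rho of 0.59 over these 286 regions. Of all 418, 184 (44.0%) held a replicate 1 peak of at least 1000 bp and 260 (62.2%) a replicate 2 peak of that width, a mean of 53.1% ± 12.9 (SD, n = 2). Both held for 155, or 37.1% (32.4 to 41.9), exactly 1 for 134, and neither for 129. When regions were chosen by width in 1 replicate and read in the other, 82.1% of the 196 broad replicate 1 peaks overlapped a broad replicate 2 peak, and 58.1% of the 279 broad replicate 2 peaks overlapped a broad replicate 1 peak.

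Broad regions missing from a replicate list were weak. In both lists were 339 of 418, or 81.1% (77.0 to 84.7), against 56.1% of all combined peaks and 80.8% of narrower peaks of like strength. Another 48 (11.5%) were in replicate 2 only, 10 (2.39%) in replicate 1 only and 21 (5.02%) in neither. Median combined strength was 75.4, 6.97, 4.68 and 3.22 in that order. The widest region missing from both lists, at chromosome V 11818610 to 11821335, was 2726 bp wide with a combined strength of 4.71. The weakest broad region, at III 13064052 to 13065055, had the lowest strength of the whole combined list, 2.00. The next weakest, at V 20716072 to 20717112 and V 13652078 to 13653138, had strengths of 2.01 and 2.02. Over the 10 widest regions absent from a replicate list, widths ran from 1903 to 2726 bp and strengths from 3.22 to 16.0. All 25 regions of 3000 bp or more were in both lists. At the 339 shared regions the median strength of the strongest overlapping peak was 34.6 in replicate 1 and 62.6 in replicate 2, and replicate 2 was higher at 307 of them. The combined strength, with a median of 75.4, exceeded both replicates at 266. The same counts were not made for narrower peaks, so they show nothing particular to broad regions. Replicate 2 also had more peaks in all, 4540 against 3126.

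Broad regions had nearly the same density on every chromosome in the combined list, whereas the density of narrower peaks varied. The combined list had 4.01 broad regions per Mb on I, 4.13 on II, 4.57 on III, 4.06 on IV, 4.31 on V and 4.02 on X. Narrower peaks ranged from 27.5 per Mb on X and 36.6 on V to 70.8 on III. In replicate 2 broad peaks ranged from 2.63 per Mb on V to 2.90 on III, with 2.78 on X. In replicate 1 they ranged from 1.91 on V to 2.25 on III among autosomes and were lower on X, at 1.53. The share of a chromosome's peaks that were broad was therefore highest on X, at 12.8% (10.1 to 15.8), and V, at 10.5% (8.55 to 12.8), against 5.91% (4.54 to 7.54) on I and 6.07% (4.70 to 7.70) on III.

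X held 71 of the 418 broad regions, or 17.0% (13.5 to 20.9), against 10.4% of all combined peaks and 5.92% of narrower peaks of like strength. These are shares of peaks, not of sequence. Per Mb, X held 4.02 broad regions, within the 4.01 to 4.57 of the autosomes, and the fewest narrower peaks, 27.5. The X share was higher among broad regions than among narrower peaks in each of the 10 strength groups, although these hold only 2 to 15 broad X regions each. The interval of the broad share lay above the share of narrower peaks in 5 groups and covered it in 5. The strongest group had 10.6% (6.03 to 16.8) against 1.02%, the next 7.58% (2.51 to 16.8) against 2.78%, and the third weakest 23.5% (6.81 to 49.9) against 16.1%. Broad peaks of each replicate list gave 13.8% and 17.6% on X, and narrower peaks of like strength in the same lists 6.03% and 5.68%. The difference was 9.82 ± 2.92 percentage points (SD, n = 2), larger than the spread between replicates. With regions in both lists alone, X held 15.3% of 339 broad regions and 4.67% of narrower peaks of like strength. Broad regions of X were weaker than those of autosomes, with a median strength of 21.3 against 64.4. Narrower peaks of X were also rarer at high strength, with an X share of 13.1% in the weakest group and 1.02% in the strongest. Of the broad X regions, 5 of 71, or 7.04% (2.33 to 15.7), were divided. On autosomes 48 of 347, or 13.8% (10.4 to 17.9), were divided, from 8.89% on V to 21.1% on IV. These shares were not matched for strength. From the fifth weakest strength group to the strongest, the share divided among all broad regions was 3.03%, 8%, 16.3%, 7.14%, 19.7% and 19.0%. None was divided in the weaker groups. V held 90 broad regions, or 21.5% (17.7 to 25.8), against 15.1% of narrower peaks of like strength. I and III held 14.4% (11.1 to 18.1) and 15.1% (11.8 to 18.9), against 20.6% and 21.5%. For II and IV the interval of the broad share covered the value of narrower peaks, 17.4% and 19.3%.

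**Figure D4:**
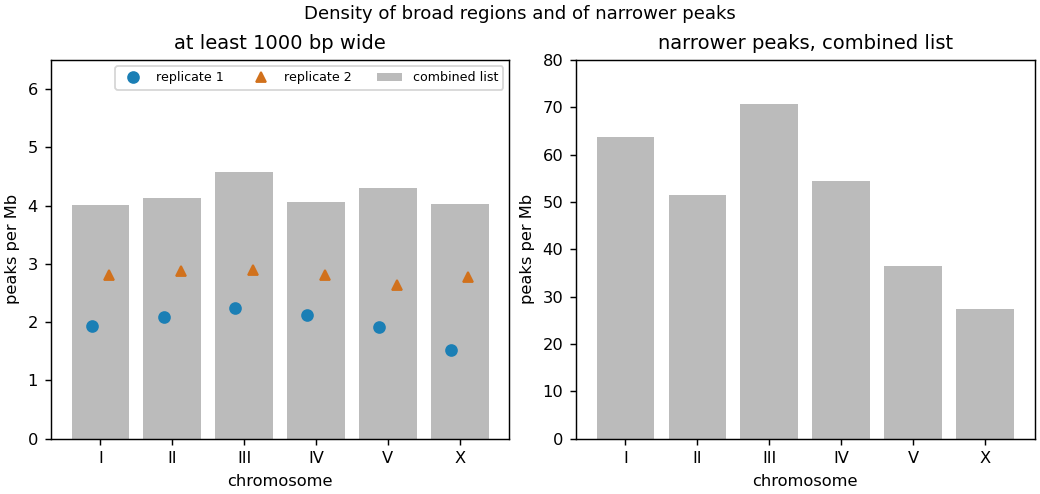
Peaks per Mb on each chromosome for peaks of at least 1000 bp (left; bars, combined list; circles and triangles, replicates 1 and 2) and for narrower peaks of the combined list (right), each on its own axis starting at 0. The bars on the left lie between 4.01 and 4.57 and those on the right between 27.5 and 70.8.

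Along the autosomes, broad regions had much the same position as other peaks. The middle part of the chromosome, from 25% to 75% of its span, held 206 of 347 autosomal broad regions, or 59.4% (54.0 to 64.6), against 56.8% of narrower peaks of like strength. The share was highest on II, at 66.7% (53.7 to 78.0) against 53.1% of narrower peaks. On III, at 54.0% (40.9 to 66.6), and V, at 60.0% (49.1 to 70.2), the intervals covered the shares of narrower peaks, 60.1% and 65.0%. On X, 36 of 71, or 50.7% (38.6 to 62.8), lay in the middle part, against 44.5% of narrower X peaks.

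Broad regions often had another peak beside them. A neighbouring combined peak less than 1000 bp away, measured from edge to edge, was present for 176 of 418, or 42.1% (37.3 to 47.0), against 20.2% of all combined peaks and 16.7% of narrower peaks of like strength. The share was higher for broad regions in each of the 10 strength groups. It was 30.3% (22.9 to 38.5) against 14.8% in the strongest group and 64.7% (38.3 to 85.8) against 19.2% in the third weakest, which had 17 broad regions. It was also higher on each chromosome, from 31.0% against 8.25% on X to 49.2% against 20.8% on III. Within the replicate lists the share was 31.6% against 9.84% in replicate 1 and 38.7% against 12.2% in replicate 2, a difference of 24.1 ± 3.3 percentage points (SD, n = 2). The median distance to the nearest peak was 1317 bp for broad regions and 3870 bp for narrower peaks.

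**Figure D5:**
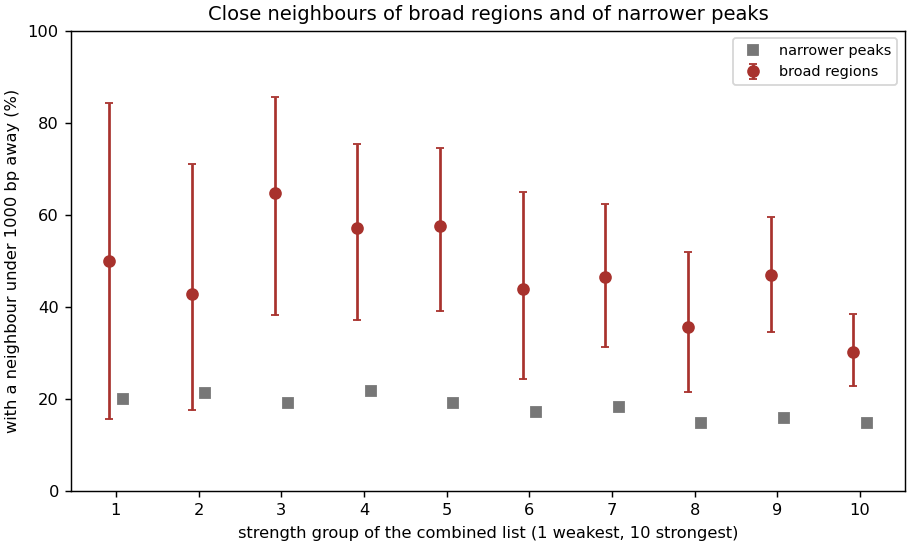
Share (%) of broad regions (circles; bars, exact 95% intervals) and of narrower peaks (squares) with another combined peak less than 1000 bp away, in 10 groups of the combined list by strength. Circles lie above squares in all 10 groups, and the intervals of the weakest groups, with 8 and 14 broad regions, reach down to the squares.

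The neighbours of broad regions were themselves often broad. For 77 of the 176, or 43.8% (36.3 to 51.4), the nearest neighbour was a broad region, compared with 103 of the 900 narrower peaks with a neighbour that close, or 11.4%, and with 7.84% broad among all combined peaks. The neighbour was the weaker of the pair at 113 of 176, with a median strength of 11.0 against 36.3. Broad regions that were each other's nearest neighbour were both counted, so the 176 are not separate pairs. Of the 176 nearest neighbours 96, or 54.5%, were in both replicate lists. The gap to it had a median of 376.5 bp, close to the 200 bp below which the lists show no separate peaks. Whether such pairs are separate sites or parts of 1 region was not tested. In all, 84 broad regions lay less than 1000 bp from another broad region, in 32 pairs and 6 longer runs. The longest run, on V from 1149734 to 1158698, held 5 broad regions that covered 7150 of 8965 bp. From left to right their strengths were 5.46, 92.6, 17.4, 2.36 and 17.4, and the regions with strengths of 5.46 and 2.36 were absent from replicate 1.

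Nearly every broad replicate peak overlapped a broad region of the combined list by at least 1 bp, 191 of 196 (97.4%) in replicate 1 and 270 of 279 (96.8%) in replicate 2. Most of the others overlapped a narrower combined peak, 3 of 5 and 7 of 9. The widest of those was the 1895 bp replicate 1 peak at III 844067 to 845961, where the combined peak was 852 bp wide. The exception by size was on V. Replicate 1 had a peak of 9359 bp at 6220727 to 6230085 with a strength of 144, and replicate 2 had peaks of 1119 bp at 6220755 to 6221873 and 7615 bp at 6222362 to 6229976 with strengths of 13.3 and 146. The combined list had no peak there, and its nearest peaks, at 6213813 to 6214229 and 6230725 to 6231178, had strengths of 3.33 and 5.34. The 9359 bp peak is wider than any broad region of the combined list. A combined strength equal to its replicate 1 strength would rank 118. Why the combined list lacks it was not tested.

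The deposited files mark 7 combined peaks as altered when positions were carried over from another genome build, and 2 of them are broad. These are the 1929 bp region at chromosome II 5660836 to 5662764, with a combined strength of 123, and the 1809 bp region at III 834547 to 836355, with a combined strength of 11.0. Both were 1 peak in each replicate list, 1854 and 1611 bp wide on II and 1442 and 1795 bp wide on III.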

How the data were processed

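EFL-1 ChIP-seq peak lists of 2 ChIP replicates and a combined list were analysed. No file of the 2 input libraries was used here. Per the file headers and source column, the authors called peaks with PeakSeq, gave positions on WormBase WS220 and deposited a q-value for each peak. Not given in the sources used here are the PeakSeq version, the aligner, the read filters, the use of input and the making of the combined list. The q-values were turned into −log10 values. Peaks of different lists were matched by an overlap of at least 1 bp. Shares of narrower peaks were weighted over 10 strength groups. The span of a chromosome ran from position 1 to its last peak end in any list. Counting steps were tested on simulated data (Python 3.11.15, pandas 2.3.3, scipy 1.17.1). Regions were named by rule: the 10 widest, the 10 strongest, the widest on each chromosome, the 5 with most replicate peaks, the 10 widest absent from a replicate list, the 3 weakest, the nearest 3 on either side of the threshold, lift-over changes and the widest replicate peaks outside, described in full or by range. The strongest X region and the V run were named after their values were seen. The regions, lists and comparisons were chosen with earlier results of these data known. The gene positions supplied are those of another assembly (WBcel235), so genes and sequences were not analysed here. Alternatives were other width thresholds, overlaps, neighbour distances, strength groups and single replicate lists.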

Additional observations from a re-analysis of the deposited data

How the results depend on the processing

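Of 54 alternative values over 11 results, 27 differed from the reported value by less than the replicate SD or its 95% interval, 27 by more. All are shares and medians without a test. With a threshold of 800 bp, broad regions were 14.1% of combined peaks, 34.5% had a neighbour within 1000 bp, 20.6% held a peak of at least 1000 bp in both replicates and the centre share was 56.0%. With 1500 bp, 3.26% were broad, 87.9% were in both lists and 54.0% held such a peak in both. In the stronger 50% of combined peaks, 11.9% were broad, 82.4% were 1 peak in each list, 98.7% were in both lists, 47.8% held a peak of at least 1000 bp in both, 13.5% were on X and the median strength was 84.1. Without either replicate, broad peaks were 6.15% to 6.27% of the list, the X share 13.8% to 17.6%, the neighbour share 31.6% to 38.7%, the centre share 58.0% to 59.1% and the median strength 31.6 to 51.8. Regions chosen in replicate 1 or 2 were broad in the other list in 82.1% and 58.1%. Neighbours within 500 and 5000 bp were present for 27.5% and 72.5%, against 8.24% and 57.7% of narrower peaks of like strength. Chosen after seeing the data, joining peaks less than 500 bp apart gave 10.4% broad blocks, regions in both lists a centre share of 57.8%, and the widest 10% of each strength group an X share of 22.8% and a centre share of 60.4%. An overlap of 50% of the replicate peak, and 5 or 20 strength groups, stayed within the interval. No cause was tested beyond what each choice does by construction. What depth limits could not be assessed, as no read numbers are at hand. No paired analysis was possible because no values of the input libraries were used here.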

Other observations

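Joining neighbouring combined peaks showed how many wide stretches the width threshold does not reach. With peaks less than 300 bp apart joined, 452 of 5223 blocks were at least 1000 bp wide, and 51 of them held no broad region. With peaks less than 500 bp apart joined, 528 of 5062 blocks were that wide, 225 of them made of several peaks and 142 without a broad region. With 1000 bp, 703 of 4739 blocks were that wide, and 333 held no broad region. The widest block was 12415 bp, on chromosome II from 10541867 to 10554281, and joined the widest broad region to 2 others. The weakest of these had a strength of 2.48.

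A replicate peak that spans several combined peaks was rare. There was 1 in replicate 1 and 5 in replicate 2, and 4 of these 6 joined a broad region to a neighbour. At X 6251975 to 6256990, replicate 2 had 1 peak of 5016 bp with a strength of 44.3 where the combined list had a broad region of 4217 bp and a separate peak.

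Over 100 windows of 1 Mb, with a last window shorter than 0.5 Mb left out, broad regions numbered 4 in the median window and 10 at most, and 3 windows held none. The windows with 10 were on III from 9000001 to 10000000 and on V from 1000001 to 2000000 and from 13000001 to 14000000.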
